A study of Mus musculus with 3 samples.

Results

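Basal cells of embryonic mouse back skin low in the cycling genes Mki67 and Top2a were compared by their level of Krt15, a keratin of the basal layer. The cells came from the 1 total epithelium library of the series, made from wild-type (WT) C57BL/6JOlaHsd embryos at E14.5, the embryonic day when the first hair placodes form. Cells counted as resting basal, a name for the gate only, when they held fewer than 15 unique molecular identifiers (UMIs, each standing for 1 captured RNA molecule) of Krt1, Krt10 and Krtdap together per 10000 UMIs, fewer than 2 per 10000 of Dkk4, Edar, Fgf20, Bmp2 and Ltb together, and at most 1 UMI of Mki67 and Top2a. The limits are aimed at suprabasal, placode and cycling cells, and 371 of the 1601 cells of the library (23.2%) met all 3. Krt15-high cells held 20 or more Krt15 UMIs per 10000 (230 cells), Krt15-low cells fewer than 8 (26 cells), and the 115 cells between are called intermediate. The 256 high and low cells are the compared cells, of 4683 cells in the series. The gate on Krt15 and the choice of this contrast used the measured values of the same library: the members were chosen by their Krt15, keratin, placode and cycling gene counts, so the values of that library are a description with no test.

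Live cells were sorted from dissociated epithelium of 3 to 4 pooled littermates per sample, after the mesenchyme had been taken off. The series also holds 2 placode-enriched libraries from the same strain, genotype and age, stated to be biological replicates, whose cells were sorted as positive for MAdCAM-1, a surface antigen of placode cells. The rule used no cell of these libraries, so they allow a test. The 3 libraries held 1601, 1511 and 1571 cells with median depths of 21977, 21652 and 23419 UMIs, and any pair of them shared at most 2 cell barcodes.

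The basal layer rests on the basement membrane, carries the keratins Krt5 and Krt14 under the control of the transcription factor Trp63, and supplies the cells of the layers above it. Hair placodes arise in the same layer as local thickenings in which Wnt, ectodysplasin and fibroblast growth factor signals meet. Krt15 is widely used as a marker of basal keratinocytes and of stem cells of the adult hair follicle bulge. Krt15 lies on the minus strand of chromosome 11 (100131758 to 100135928, GRCm38), Dlk2 on the plus strand of chromosome 17 (46297421 to 46303271), Wnt16 on the plus strand of chromosome 6 (22288227 to 22298522) and Col8a1 on the minus strand of chromosome 16 (57624258 to 57754737). All 4 are protein-coding genes.

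Krt15 formed a continuous range with no gap at either threshold. In the total epithelium library its median was 30.2 UMIs per 10000 in Krt15-high cells (highest 72.9), 14.7 in intermediate cells and 4.94 in Krt15-low cells (1.66 to 7.39). High cells made up 62.0% of the gated cells (95% exact binomial interval 56.8 to 67.0%), and low cells 7.01% (4.63 to 10.1%). The order was the other way round in the placode-enriched libraries. There high cells were 26 of 186 (13.98%) and 17 of 187 (9.09%), and low cells 106 (57.0%) and 114 (61.0%). The MAdCAM-1 sort acts on these shares, so they are set side by side only. Krt15-low cells of the total epithelium library were shallower than high cells, with a median of 14668.5 against 19050.5 UMIs, and their sum held 394465 UMIs against 4290916.

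**Figure D1:**
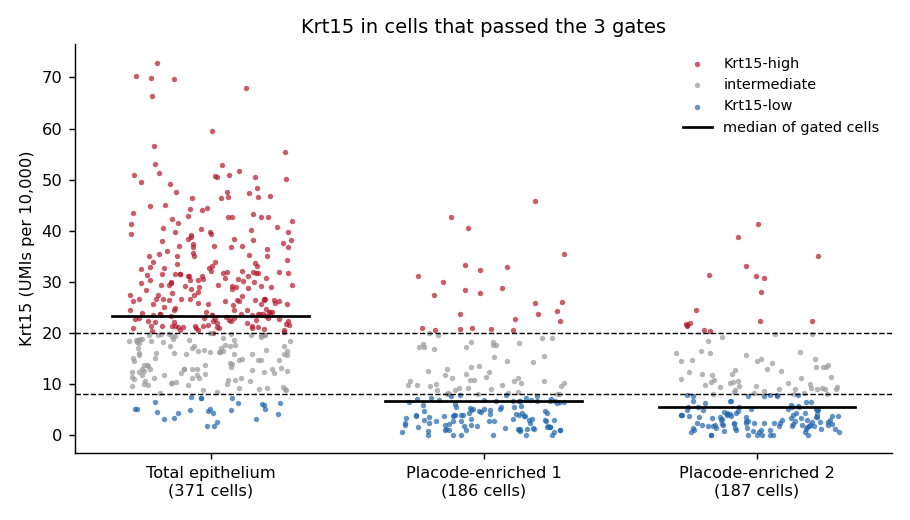
Krt15 per cell (UMIs per 10000, linear axis) in the cells that passed the 3 gates in each library, with dashed lines at 8 and 20 and a black bar at the median of all gated cells. In the total epithelium library most points lie above 20, and in both placode-enriched libraries most lie below 8.

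The gates did not keep out every cell they are aimed at. Summed G2 and M phase genes had medians of 25.5, 27.2 and 26.3 UMIs per 10000 in high, intermediate and low cells but reached 148, 136 and 102, and the median count of Mki67 and Top2a was 1 UMI in each group, so the cells are not shown to be resting. The low side also went against its name. Of the 26 Krt15-low cells, 20 (76.9%, interval 56.4 to 91.0%) held 3 or more UMIs of 12 placode genes that the gate did not use (Sp5, Wif1, Bdnf, Trps1, Etv4, Shh, Nrp2, Cyfip2, Socs2, Pthlh, Robo2 and Tgfb2). These 12 genes were chosen after values had been seen. Of the intermediate cells 19 of 115 (16.5%) did so, and of the high cells 8 of 230 (3.48%). The share was 56.9% in the 72 cells that passed the other gates but failed the placode gate, and 1.94% in 103 suprabasal cells that should lack these genes, at median depths of 16472 and 20632 UMIs. With every cell thinned to 5000 UMIs, 73.1% of low, 31.3% of intermediate and 11.7% of high cells kept at least 1 UMI of the 12 genes, against 92.3%, 50.4% and 37.0% before thinning. Their summed level, given as CPM (UMIs scaled to the same total in every group), was 29.6 CPM in high, 82.7 in intermediate and 512 CPM in low cells.

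The placode-enriched libraries gave the same picture. There 99 of 106 (93.4%) and 94 of 114 (82.5%) low cells held 3 or more UMIs of the 12 genes, against 9 of 26 (34.6%) and 3 of 17 (17.6%) high cells. The contrast is therefore called Krt15-high against Krt15-low by its rule, and the low group is not taken for plain basal cells. Just under the low threshold, from 6 to 8 Krt15 UMIs per 10000, 5 of 8 cells held 3 or more of these UMIs, and just above it, from 8 to 10, 6 of 14 did. At the high threshold the count was 1 of 26 cells from 18 to 20 and 1 of 27 from 20 to 22.

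**Figure D2:**
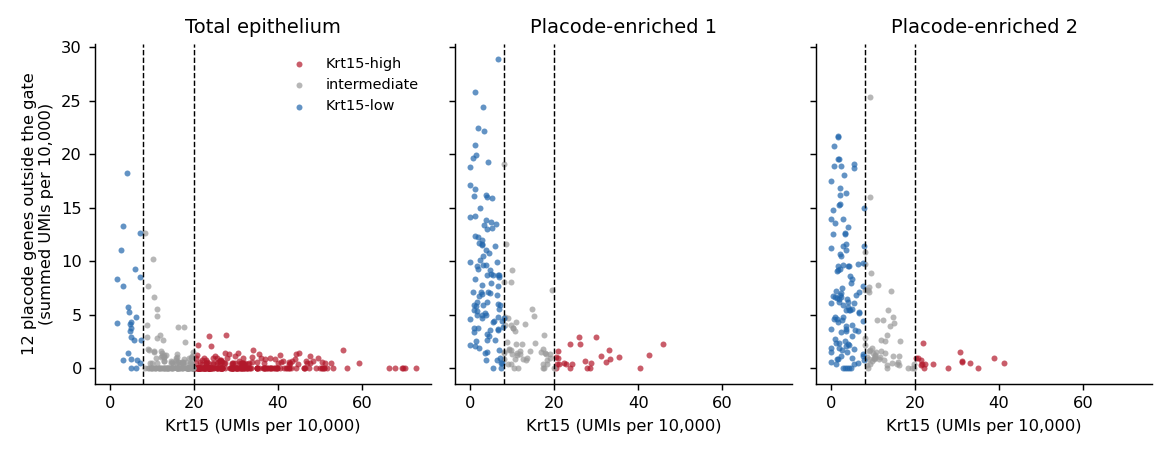
Each point is a gated cell, with its Krt15 (x axis) and its summed UMIs of 12 placode genes outside the gate (y axis), both per 10000 UMIs, in the 3 libraries. Dashed lines mark the Krt15 thresholds of 8 and 20, and values above 5 on the y axis come from cells under the high threshold, with the highest in Krt15-low cells in libraries total epithelium (18.3) and placode-enriched 1 (28.9) and in an intermediate cell in library 2 (25.4).

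Genes of other cell types were carried by 2 low cells. One held 47 UMIs of the melanoblast genes Dct, Pmel, Mlana, Sox10 and Mitf, 94.0% of the 50 in the group. The other held 152 UMIs of the dermal genes Twist2, Col1a1, Col3a1, Lum and Dlk1, the highest count in any other gated cell of the library being 1. The cell with the dermal genes also held 6 UMIs of the 12 placode genes. It is therefore already counted above among the low cells with 3 or more. The cell with the melanoblast genes held 1 such UMI and is not. Over the whole lists, melanoblast markers (5 of 6 in the table) summed to 5.36 CPM in high, 7.21 in intermediate and 127 CPM in low cells, with Mlana at 0 in the low cells. Fibroblast markers (7 of 9) summed to 788, 918 and 1148 CPM, with Col1a1 and Twist2 at 0 in high cells and none at 0 in low cells. In the low group 1 cell held 184 of the 453 fibroblast marker UMIs (40.6%). Periderm markers stayed at 17.3 to 26.3 CPM. Among placode-enriched cells no gated high or low cell held 3 UMIs of the dermal or the melanoblast genes.

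Summed UMIs of the 2 groups were compared gene by gene in the total epithelium library. Of 7537 genes with a mean of at least 10 CPM, gate genes left out, 853 (11.3%) were 1.5-fold or more higher in Krt15-high cells and 1304 (17.3%) were 1.5-fold or more lower. At this depth 10 CPM in the low group is a handful of UMIs, so most of these counts rest on few molecules, and at a mean of 50 CPM or more 161 genes were higher and 183 lower. Of the genes past the fold, 39.5% were higher. With trimmed mean (TMM) scaling all ratios moved up by 0.12 on the log2 scale and the split became 1132 higher and 971 lower (53.8% higher). Of 2699 genes with a mean of 50 CPM or more and a ratio in all 3 libraries, 161 were higher and 45 of them (28.0%) were also past 1.5-fold higher in both placode-enriched libraries, where 65 genes (2.41%) were, so that 69.2% of those were shared. On the lower side 50 of 180 (27.8%) were, against 69 genes (2.56%), of which 72.5% were shared. At a mean of 10 CPM the overlap was smaller: 110 of 848 higher genes (13.0%) were past the fold in both, 44.2% of the 249 that were (3.32% of 7490), and 246 of 1267 lower genes (19.4%), 53.1% of 463 (6.18%).

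The same gates were tested in the placode-enriched libraries with edgeR's quasi-likelihood test on 4 sums, with the library as a block and Benjamini-Hochberg adjustment. Of 8188 genes, 140 (1.71%) were higher and 147 (1.8%) lower in Krt15-high than in Krt15-low cells at an adjusted p under 0.05. The fit had 1 residual degree of freedom, so the spread behind each p was mostly borrowed from other genes. DESeq2 called 36 higher and 38 lower. As the counts above show, this test sets cells mostly under 3 UMIs of the 12 placode genes against cells mostly at 3 or more. At least 1 UMI of these genes was held by 21 of 26 and 14 of 17 high cells and by 104 of 106 and 109 of 114 low cells.

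The genes given with the contrast, Dlk2, Wnt16 and Col8a1, were lower in steps from high to low cells in the total epithelium library. Dlk2, a membrane protein of the Delta-like family related to Notch ligands, stood at 64.3 CPM in high (95% exact Poisson interval 57.0 to 72.4, counting error only), 43.7 in intermediate (35.2 to 53.7) and 20.3 CPM in low cells (8.76 to 39.96). Its level was 4.36 CPM in suprabasal cells. Placode-enriched cells held 16.6 and 52.4 CPM in high, 31.3 and 21.1 in intermediate and 8.94 and 10.8 CPM in low cells. High exceeded low in both libraries, by a log2 fold change of 1.77 ± 0.40 (SE, edgeR adjusted p = 0.026), but in library 1 the intermediate cells were above the high ones.

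Wnt16, a secreted Wnt ligand, was at 48.2 (41.9 to 55.3), 25 (18.7 to 32.8) and 17.7 CPM (7.13 to 36.6) in high, intermediate and low cells of the total epithelium library. The 7 Wnt16 UMIs of the low group came from 4 cells. Its placode-enriched levels were 22.1 and 42.4 CPM in high against 0.559 and 2.44 CPM in low cells, and the log2 fold change was 4.35 ± 0.50 (SE, edgeR adjusted p = 1.64e-04). When cells with 3 or more UMIs of the 12 placode genes were left out, 6 low cells remained in the total epithelium library and Wnt16 was at 49.1 CPM in high and 69.1 CPM in low cells (6 UMIs), a log2 ratio of -0.49, so its direction there depended on those cells. The same 6 cells held no Dlk2 UMI, a count of 0 in 86842 UMIs, and 2 of Col8a1 (23.0 against 44.2 CPM in high cells). In the placode-enriched libraries without such cells Dlk2 changed by 0.69 ± 0.56 (SE), which edgeR did not call (adjusted p = 0.922), and Wnt16 and Col8a1 were too low to be tested.

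Col8a1, a collagen chain of short-chain networks, was at 43.8 (37.8 to 50.5), 24.0 (17.8 to 31.7) and 7.61 CPM (1.57 to 22.2), the low value resting on 3 UMIs in 3 cells. The ratio of high to low was 5.76 (95% interval 1.94 to 28.2). Col8a1 in placode-enriched cells was at 22.1 and 37.4 CPM in high and 1.68 and 2.93 CPM in low cells, with a log2 fold change of 3.65 ± 0.46 (SE, edgeR adjusted p = 3.9e-04). In the placode-enriched libraries Wnt16 and Col8a1 reached the level needed for the test only through the high group. They could not have been called lower there. All 3 genes were higher in high than in low cells in every library under the main rule. Their ratios in the total epithelium library were smaller under other gates. With 0 UMIs of Mki67 and Top2a and G2 and M phase genes at or under their median, which left 58 high and 5 low cells, the log2 ratios were 0.58 for Dlk2, 0.15 for Wnt16 and 0.59 for Col8a1, against 1.67, 1.44 and 2.53 under the main rule. With the suprabasal limit at 5 they were 0.77, 1.58 and 0.16, and after thinning 1.56, 1.74 and 0.76. For none of the 3 was the step from high to intermediate called by edgeR (adjusted p = 0.947, 0.411 and 0.17).

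**Figure D3:**
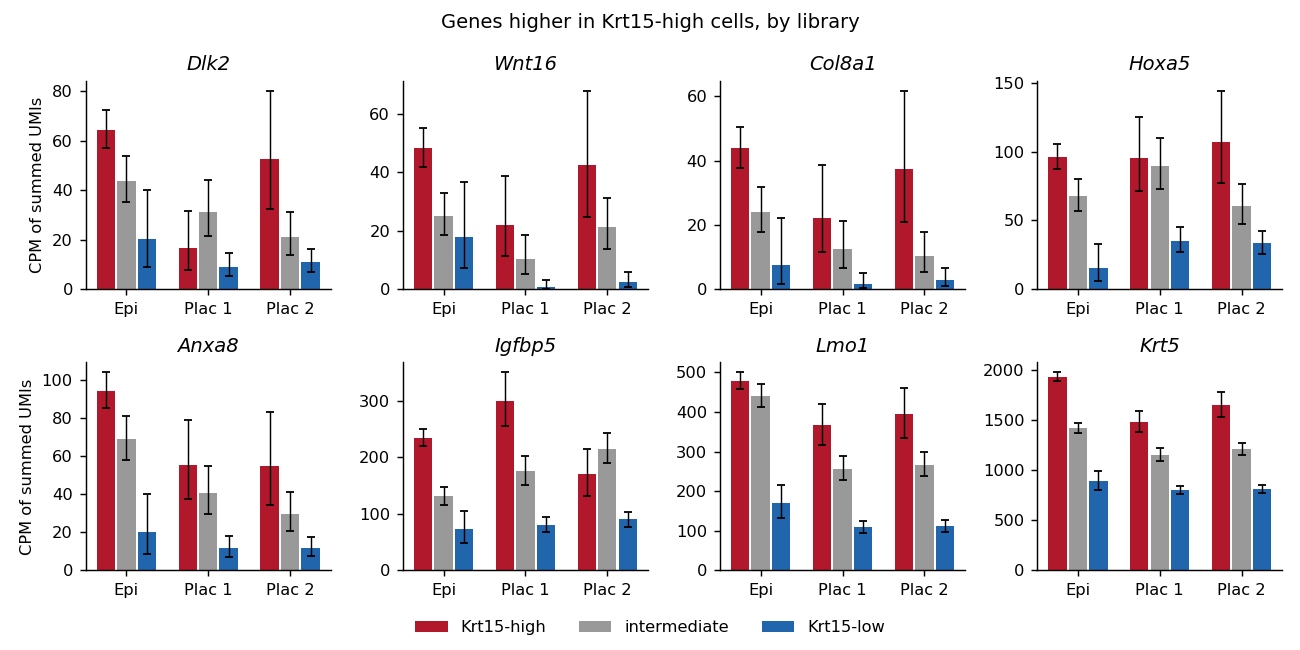
CPM of summed UMIs in Krt15-high (red), intermediate (grey) and Krt15-low cells (blue) of the total epithelium (Epi) and both placode-enriched libraries (Plac 1, Plac 2), for 8 genes, with 95% exact Poisson intervals as error bars (counting error only). In every library the low bar is the lowest, and the intermediate bar lies between except for Dlk2 in placode-enriched library 1 and Igfbp5 in library 2.

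By the fixed rule, the 12 genes with the highest ratio of high to low in the total epithelium library were Pcsk2, Hoxa5, Col8a1, Nnt, Col12a1, Anxa8, Tceal5, Tmem161a, Ccnb2, Vgll3, Ctsl and Fst. Of these, 9 were also past 1.5-fold higher in both placode-enriched libraries, where 3.32% of genes with a mean of 10 CPM were. EdgeR called 7 higher and 0 lower, where it called 1.71% of all genes higher. Col8a1 for one reached the test only through the high group and could not have been called lower. The count therefore supports nothing further. Hoxa5, a homeobox factor of trunk position, was at 96.2, 67.8 and 15.2 CPM in high, intermediate and low cells, and the low cells held 6 UMIs in 6 cells. It stood at 95.7 and 107 CPM in high against 35.2 and 33.2 CPM in low cells of the placode-enriched libraries (log2 fold change 1.58 ± 0.21 SE, edgeR adjusted p = 5.62e-04). Anxa8, a calcium-dependent membrane-binding protein, was at 94.2, 68.7 and 20.3 CPM, and its change was 2.24 ± 0.29 (SE, edgeR adjusted p = 5e-04). Ctsl, a lysosomal protease, was at 329, 232 and 101 CPM (1.09 ± 0.14 SE, edgeR adjusted p = 4.33e-04).

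Fst, a secreted inhibitor of activins that is itself known from placodes, was at 204, 99.0 and 63.4 CPM. Placode-enriched Fst levels were 142 and 140 CPM in high and 79.3 and 74.3 CPM in low cells (0.89 ± 0.16 SE, edgeR adjusted p = 0.00734). Pcsk2, a prohormone convertase, had the highest ratio, 8.32 (interval 2.27 to 69.2), from 2 UMIs in 1 low cell, and it was no lower in intermediate (44.2 CPM) than in high cells (42.2 CPM). Nnt, Tmem161a and Vgll3 were not called in the placode-enriched libraries, where their edgeR adjusted p values were 0.799, 0.789 and 0.609.

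Several genes from the lists followed the same steps at higher levels, where counting error is small. Krt5 was at 1935 CPM in high (1893 to 1977), 1420 in intermediate and 897 CPM in low cells (806 to 996), and the per-cell medians were 18.8, 13.5 and 8.94 UMIs per 10000. Placode-enriched Krt5 levels were 1481 and 1649 CPM in high and 801 and 809 CPM in low cells (0.98 ± 0.07 SE, edgeR adjusted p = 2.29e-06). Its partner Krt14 was at 3594, 3288 and 2304 CPM, but in the placode-enriched libraries its change of 0.21 ± 0.07 was not called (edgeR adjusted p = 0.129). Trp63 stood at 277, 294 and 304 CPM, with an edgeR adjusted p of 0.506 in the placode-enriched libraries, and the hemidesmosome genes Itga6, Itgb4 and Col17a1 were not called either (adjusted p 0.916, 0.642 and 0.291). Of the 15 genes of basal identity, 3 were 1.5-fold higher and 2 lower, against 11.3% and 17.3% of all genes. Their median log2 ratio was 0.03 against -0.05 for all genes. EdgeR called 3 of 15 higher (Krt5, Perp, Klf5) and 2 lower (Tfap2a, Tfap2b), against 1.71% and 1.8% of all genes.

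Lmo1, a LIM-only transcriptional cofactor, was at 479, 440 and 170 CPM, so that intermediate cells were close to high ones (per-cell medians 4.51, 4.08 and 1.07 UMIs per 10000). Its edgeR change in the placode-enriched libraries was 1.81 ± 0.12 (SE, adjusted p = 2.2e-06). Hotairm1, a non-coding RNA of the Hoxa cluster, was at 278, 182 and 91.3 CPM and changed by 1.63 ± 0.15 (SE, edgeR adjusted p = 2.36e-05). Gas1, a surface co-receptor for Hedgehog, was at 313, 238 and 180 CPM and changed by 1.66 ± 0.12 (SE, edgeR adjusted p = 4.55e-06). Cdkn1c, an inhibitor of cyclin-dependent kinases, was at 148, 115 and 86.2 CPM and changed by 1.54 ± 0.20 (SE, edgeR adjusted p = 4.45e-04). Vcan, a matrix proteoglycan, was at 116, 88.9 and 50.7 CPM and changed by 1.83 ± 0.21 (SE, edgeR adjusted p = 1.79e-04).

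Members of the insulin-like growth factor system were among them, both binding proteins that hold the ligand outside the cell. Igfbp2 was at 426, 339 and 188 CPM in high, intermediate and low cells, and at 361 and 444 CPM in high against 144 and 135 CPM in low cells of the placode-enriched libraries (1.54 ± 0.13 SE, edgeR adjusted p = 9.97e-06). Igfbp5 was at 234, 131 and 73.5 CPM (1.5 ± 0.20 SE, edgeR adjusted p = 5.08e-04), and Igf2, the ligand, at 124, 102 and 73.5 CPM (0.80 ± 0.17 SE, edgeR adjusted p = 0.0188). Igfbp4 went the other way, at 37.8, 66.8 and 109 CPM (-1.20 ± 0.16 SE, edgeR adjusted p = 7.33e-04). Of the 13 genes of this list, 8 had a mean of 10 CPM, 4 of them 1.5-fold higher and 2 lower, at a median of 0.60. Of all genes 11.3% were higher and 17.3% lower, at a median of -0.05. EdgeR called 3 of 7 higher and 1 lower, against 1.71% and 1.8% of all genes.

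On the low side, the 12 lowest ratios under the rule were led by genes of the single dermal cell. Dlk1, Vcam1, Twist2, Lum, Col1a1, Crabp1, Col3a1 and Meg3 had most of their UMIs in 1 low cell, for example 29 of 29 Twist2 UMIs and 54 of 55 Crabp1 UMIs. Over all 1304 genes that were lower in high cells, 73 had 6 or more UMIs with at least 50% of them in 1 cell. Without that cell the 12 lowest were Eif4e3, Bdnf, Trps1, Wif1, Pmel, Cers4, Cpe, Ncam1, Dct, Etv4, Dusp6 and Sox9, a list chosen after values had been seen, of which Pmel and Dct came from the melanoblast-marker cell (19 of 20 and 20 of 21 UMIs). The other 10 were tested in the placode-enriched libraries and edgeR called all 10 lower in Krt15-high cells, where it called 1.8% of all genes lower. Several of them, such as Bdnf, Trps1 and Wif1, were measurable only through the low group and could not have been called the other way, so this count supports nothing further.

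Dusp6, a phosphatase induced by fibroblast growth factor signalling through ERK, stood at 32.6 CPM in high (27.4 to 38.5), 120 in intermediate (106 to 136) and 563 CPM in low cells (491 to 642), 17.3-fold higher in low than in high cells (13.9 to 21.5). Per cell it reached at most 2.90 UMIs per 10000 in high cells and had a median of 6.08 and a highest value of 15.4 in low cells. Its level in the placode-enriched libraries was 79.1 and 67.4 CPM in high, 257 and 180 in intermediate and 483 and 484 CPM in low cells (-2.68 ± 0.14 SE, edgeR adjusted p = 5.17e-07). In each library the level was higher from step to step, and the counting intervals of the 3 groups did not overlap.

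Wif1, a secreted Wnt inhibitor, was at 1.40, 4.81 and 81.1 CPM, and Bdnf, a neurotrophin, at 1.40, 8.65 and 76.1 CPM. The placode-enriched libraries held Wif1 at 7.36 and 2.49 CPM in high and 113 and 118 CPM in low cells, and its change of -4.40 ± 0.37 (SE) had an edgeR adjusted p of 1.16e-05. That of Bdnf was -4.66 ± 0.37 (SE, edgeR adjusted p = 9.63e-06). Trps1, a GATA-type repressor needed for hair, was at 0.932, 9.13 and 50.7 CPM (-4.14 ± 0.38 SE, edgeR adjusted p = 2.95e-05). Sox9, a transcription factor of follicle progenitors, was at 4.43, 16.8 and 68.4 CPM (-2.06 ± 0.30 SE, edgeR adjusted p = 0.00135).

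Krt17, a keratin of appendages, was at 113, 272 and 1118 CPM, 9.93-fold higher in low than in high cells (8.71 to 11.3). In the low group 1 cell held 92 of its 441 UMIs, and the per-cell medians were 0.80, 1.12 and 5.59 UMIs per 10000. The placode-enriched libraries held Krt17 at 478 and 172 CPM in high against 1522 and 975 CPM in low cells (-1.92 ± 0.13 SE, edgeR adjusted p = 2.29e-06). Sostdc1, a secreted inhibitor of Bmp and Wnt signals, was at 441, 724 and 1199 CPM, with per-cell medians of 3.87, 4.49 and 11.4 UMIs per 10000. Its placode-enriched levels were 968 and 554 CPM in high, 1177 and 850 in intermediate and 1117 and 1036 CPM in low cells (-0.48 ± 0.12 SE, edgeR adjusted p = 0.0429), so library 1 showed little difference between the groups.

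**Figure D4:**
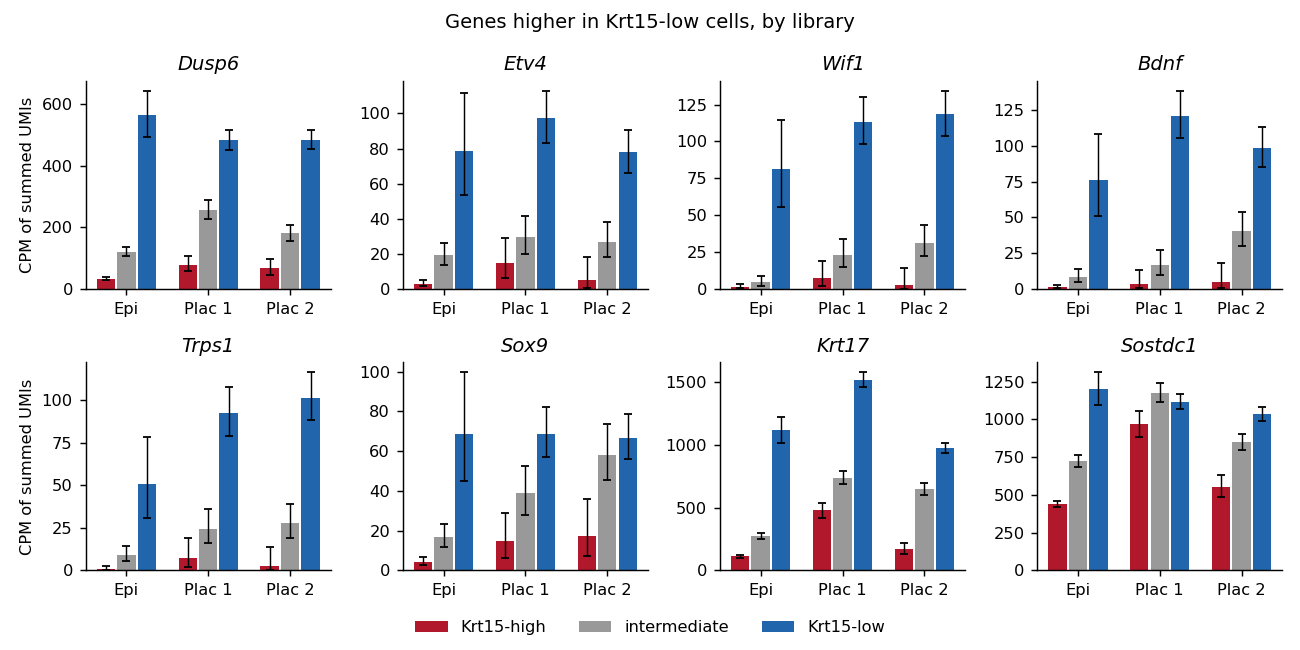
CPM of summed UMIs in Krt15-high (red), intermediate (grey) and Krt15-low cells (blue) of the 3 libraries for 8 genes that were higher in low cells, with 95% exact Poisson intervals as error bars (counting error only). The levels go up from red to blue in each library except for Sostdc1 in placode-enriched library 1, where the intermediate bar is the highest.

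The low cells were also set beside cells that met the suprabasal and cycling gates but failed the placode gate, with no test. Those cells were not selected by Krt15. Of them 56.9% in the total epithelium and 98.0% and 97.8% in the placode-enriched libraries held 3 or more UMIs of the 12 placode genes. Among low cells these shares were 76.9%, 93.4% and 82.5%. Sostdc1 was at 1199, 1117 and 1036 CPM in low cells of the total epithelium and both placode-enriched libraries and at 254, 373 and 284 CPM in the cells that failed the placode gate. Sox9 was likewise at 68.4, 68.7 and 66.5 CPM against 19.4, 36.2 and 32.5 CPM. Shh, the Hedgehog ligand of the placode, went the other way, at 2.54, 11.2 and 11.7 CPM in low cells (1 UMI in the total epithelium library) against 46.3, 98.7 and 104 CPM. For Wif1 the total epithelium values were 81.1 and 61.5 CPM, and it was at 113 and 118 against 172 and 165 CPM in the placode-enriched ones, and Etv4 at 78.6, 97.2 and 77.7 against 53.1, 98.4 and 91.1 CPM. The low cells thus held less Shh and more Sostdc1 and Sox9 than the cells that failed the placode gate, whose Dkk4, a gate gene, is set by the rule.

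Among secreted Wnt ligands and their release factor, most measured genes were higher in Krt15-high cells. Of 19 genes 10 had a mean of 10 CPM. Of these, 7 were 1.5-fold higher and 1 lower, at a median log2 ratio of 0.87, against 11.3% and 17.3% of all genes. EdgeR called 4 of 10 higher and 0 lower in the placode-enriched libraries (Wnt16, Wnt3a, Wnt4 and Wls), against 1.71% and 1.8% of all genes. Of these, Wnt16 was given with the contrast, reached the test only through the high group and could not have been called lower. With placode-gene cells left out as above, its log2 ratio in the total epithelium library was -0.49, with 6 low cells. Wnt4 was at 188, 157 and 91.3 CPM in high, intermediate and low cells (0.98 ± 0.17 SE, edgeR adjusted p = 0.00528). Wnt3a was at 32.2, 20.7 and 12.7 CPM (1.84 ± 0.35 SE, edgeR adjusted p = 0.0101), and Wls, the carrier that brings Wnt ligands to the cell surface, at 412, 353 and 221 CPM (0.73 ± 0.12 SE, edgeR adjusted p = 0.00386). Wnt10b was the lower one, at 8.62 against 15.2 CPM. The summed level of the list was 1435, 1303 and 930 CPM in the total epithelium library.

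Receptors, feedback inhibitors and targets of the Wnt pathway did not follow the ligands. Of 20 genes with a mean of 10 CPM, 1 was higher and 9 lower, at a median of -0.54, against 11.3% and 17.3% of all genes. EdgeR called 1 of 23 higher (the receptor Fzd6) and 3 lower (Wif1, Ctnnb1 and Sostdc1), against 1.71% and 1.8% of all genes. Wif1 reached the test only through the low group and could not have been called higher. The summed level of all measured members was 1791, 2213 and 2989 CPM in high, intermediate and low cells of the total epithelium library. Most of the difference between high and low cells in this sum came from Sostdc1 and Ctnnb1. Ctnnb1, which encodes beta-catenin, was at 412, 471 and 730 CPM (-0.95 ± 0.09 SE, edgeR adjusted p = 3.88e-05). Lef1, a nuclear partner of beta-catenin, was at 198, 214 and 180 CPM with an edgeR adjusted p of 0.691.

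The list of fibroblast growth factor signalling held receptors, carriers and feedback genes. Of its 21 genes 11 had a mean of 10 CPM, 8 of them lower and 1 higher, at a median of -1.86, against 17.3% and 11.3% of all genes. EdgeR called 6 of 11 lower (Dusp6, Etv4, Etv5, Spry1, Spry2 and Fgfr1) and 1 higher, against 1.8% and 1.71% of all genes. Etv5, an ETS factor induced by the pathway, was at 4.19, 19.7 and 68.4 CPM (-4.45 ± 0.54 SE, edgeR adjusted p = 2.61e-04). The higher one was Fgfbp1, a carrier that frees fibroblast growth factors from the matrix, at 540, 409 and 322 CPM (1.70 ± 0.18 SE, edgeR adjusted p = 6.97e-05). Fgfr2, the epithelial receptor, was at 143, 124 and 117 CPM and had an edgeR adjusted p of 0.915. Etv4, Etv5 and Fgfr1 reached 10 CPM only through the low group and could not have been counted as higher. The same limit may hold for some of the edgeR calls. The summed level of all measured members was 818, 834 and 1422 CPM. Fgfbp1, which went the other way, gave 540, 409 and 322 CPM of these sums. High and intermediate cells were thus nearly level in the sum only. The median log2 ratio of high to intermediate cells was -0.87 over the list, against -0.01 for all genes.

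Placode genes other than the gate genes were mostly lower in Krt15-high cells. Of 33 genes 18 had a mean of 10 CPM, and 16 of these were lower and 1 higher, at a median of -3.41, against 17.3% and 11.3% of all genes. EdgeR called 16 of 24 lower and 1, Fst, higher, against 1.8% and 1.71% of all genes. Many of these genes reach 10 CPM only through the low group, so they could not have been called the other way, and the summed level of all measured members, which has no such filter, was 1048, 1435 and 2948 CPM in high, intermediate and low cells. Of the ectodysplasin and NF-kB genes 5 of 9 were lower and 1 higher, and edgeR called Nfkbia, the inhibitor that the pathway induces, and Relb lower. Nfkbia stood at 88.1, 121 and 264 CPM (-0.93 ± 0.18 SE, edgeR adjusted p = 0.00871).

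**Figure D5:**
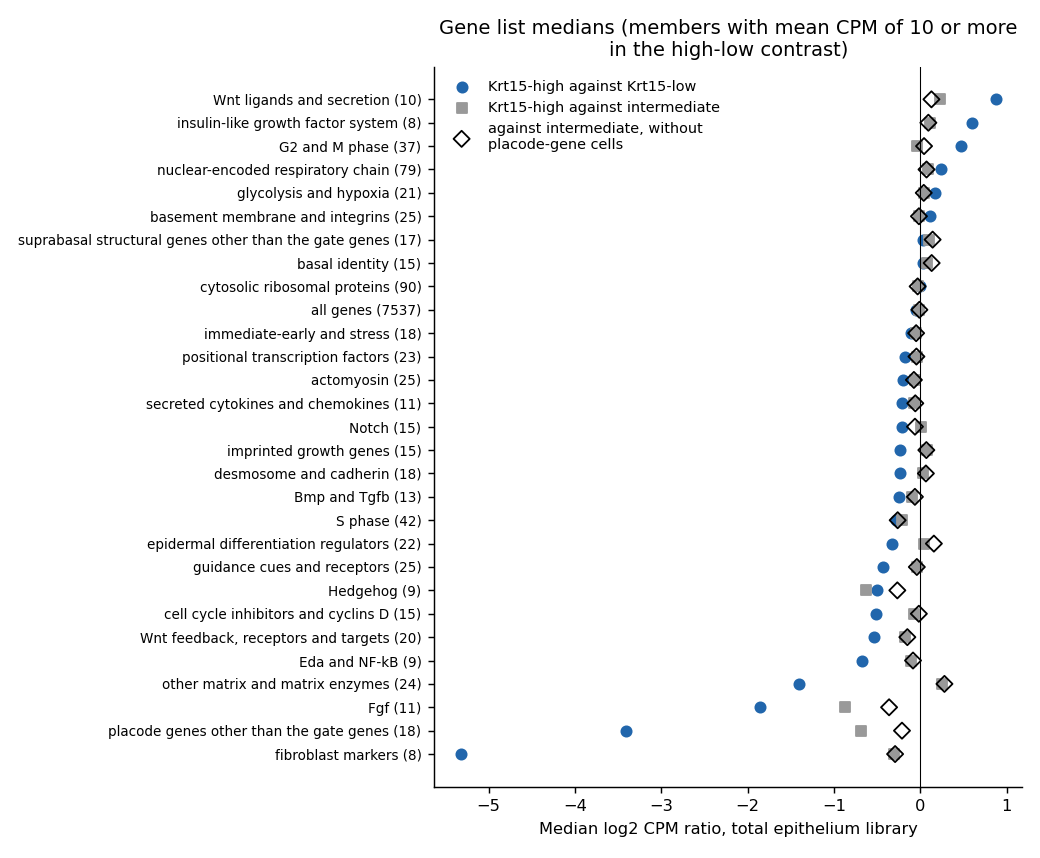
Median log2 ratio of CPM over the members of each gene list in the total epithelium library, for Krt15-high against low cells (circles), against intermediate cells (squares) and against intermediate cells without those that held 3 or more UMIs of 12 placode genes (diamonds), with the number of members in brackets. Placode genes lie at -3.41, Fgf genes at -1.86 and Wnt ligands at 0.87 in the first contrast, and the fibroblast median of -5.32 comes mostly from 1 dermal cell.

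Hedgehog, Notch and Bmp genes held members on both sides, with small counts to set beside the 11.3% higher and 17.3% lower of all genes. The edgeR calls stand beside 1.71% higher and 1.8% lower of all genes. Of 9 Hedgehog genes 2 were higher and 4 lower, and edgeR called 1 of 9 higher, the co-receptor Gas1 described above, and 1 lower. Of 15 Notch genes 2 were higher and 5 lower, and edgeR called Dlk2 higher and the targets Hes1 and Nrarp lower. Of 13 Bmp and Tgfb genes 4 were higher and 6 lower, and edgeR called 1 of 16 higher (Fst) and 3 lower. Id3, a Bmp target and one of the 3, was at 201, 312 and 330 CPM (-1.05 ± 0.11 SE, edgeR adjusted p = 7.5e-05).

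Among positional transcription factors, Hoxc8 was at 75.3, 80.3 and 93.8 CPM in the total epithelium library, but at 46.0 and 47.4 CPM in high and 173 and 169 CPM in low cells of the placode-enriched libraries (-1.85 ± 0.19 SE, edgeR adjusted p = 6.11e-05). Hoxc6 was lower in high cells in all 3 libraries (14.9 against 33.0 CPM in total epithelium, edgeR -1.91 ± 0.29 SE, adjusted p = 0.00174), while Hoxa5 was higher. Of 23 such factors 4 were higher and 6 lower, against 11.3% and 17.3% of all genes, so the counts in the total epithelium library show nothing particular to these factors. EdgeR called 2 of 23 higher and 3 lower, against 1.71% and 1.8% of all genes.

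Genes of the upper layers showed no common shift in the total epithelium library. Of 17 structural suprabasal genes outside the gate 5 were higher and 3 lower, at a median of 0.03, against 11.3% and 17.3% of all genes. EdgeR called 4 of 16 higher (Dmkn, Fabp5, Lgals7 and Perp) and 2 lower (Dsp and Rhov), against 1.71% and 1.8% of all genes. Fabp5, a fatty acid carrier, was at 2861, 2220 and 1501 CPM (1.08 ± 0.07 SE, edgeR adjusted p = 2.35e-06). Dmkn, a secreted product of differentiating keratinocytes, was at 505, 451 and 319 CPM (1.66 ± 0.14 SE, edgeR adjusted p = 1.16e-05). The gate genes Krt1 and Krt10 were near equal in the groups, at 111, 120 and 119 and at 177, 161 and 175 CPM, whereas in the placode-enriched libraries Krt1 was at 20.3 to 27.4 and Krt10 at 54.8 to 68.2 CPM. The summed suprabasal markers were 475 and 469 CPM in high and 259 and 232 CPM in low cells there, and their part in the called suprabasal genes was not tested.

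The counts below stand beside 11.3% higher and 17.3% lower of all genes, and edgeR calls of 1.71% and 1.8%. Of 42 S phase genes 2 were higher and 10 lower in Krt15-high cells, at a median of -0.28, and edgeR called 0 of 41 in either direction. Of 37 G2 and M phase genes 13 were higher and 1 lower, at a median of 0.47, and edgeR called Cdca3 of 39. Summed per cell of the total epithelium library, G2 and M phase genes had medians of 25.5 UMIs per 10000 (high) and 26.3 (low). Single cells reached 148 and 102, and whether the higher genes rest on such cells was not tested. Ribosomal protein genes lay at a median of 0.00, with 0 of 90 past 1.5-fold. Nuclear-encoded respiratory chain genes lay at 0.24, with 4 of 79 past 1.5-fold higher, under the share of all genes, and 0 lower. EdgeR called 13 of 79 higher and 0 lower, among them Atp5b at 1762 against 1072 CPM (0.46 ± 0.07 SE, edgeR adjusted p = 0.00181). These median shifts of cycle and respiratory genes are small beside those of the placode genes, and the medians against intermediate cells were -0.04 for G2 and M phase and 0.09 for the respiratory chain.

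Krt15-high cells were also compared with intermediate cells, which hold a smaller share of placode-gene cells than the low group. Cells with 3 or more UMIs of the 12 genes were 19 of 115 intermediate against 20 of 26 low cells in the total epithelium library, but still 35 of 54 (64.8%) and 32 of 56 (57.1%) intermediate cells in the placode-enriched ones. In the total epithelium library 144 of 7377 genes (1.95%) were 1.5-fold higher in high cells and 209 (2.83%) lower. EdgeR called 17 of 6926 placode-enriched genes higher (0.245%) and 26 lower (0.375%). Dusp6, Krt17, Socs2, Bdnf, Wif1, Trps1 and Sox9 were among the lower genes there and Igfbp2, Lmo1, Krt5 and Fgfbp1 among the higher ones, with edgeR adjusted p values of 5.15e-06, 0.00408, 3.06e-04 and 2.14e-06 for the last 4. In that fit edgeR estimated no extra spread between genes, so its p values rest on 1 common spread.

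When cells with 3 or more UMIs of the 12 placode genes were left out as well, 222 high and 96 intermediate cells remained in the total epithelium library, and 152 (2.06%) and 209 (2.83%) of 7373 genes were past 1.5-fold higher and lower. Wnt16 was then at 49.1 and 29.1 CPM in high and intermediate cells, Col8a1 at 44.2 and 28.0, Dlk2 at 65.7 and 48.8, Igfbp5 at 233 and 128, Fst at 204 and 98.1 and Krt5 at 1934 and 1486 CPM. Dusp6 remained lower in high cells, at 31.7 against 75.6 CPM, as did Spry2, a feedback inhibitor of the same pathway, at 13.5 against 32.5 CPM. Lmo1 was at 478 and 473 CPM. Over the lists, the median log2 ratio of high to intermediate cells was -0.87 for the Fgf genes with all cells and -0.36 without placode-gene cells, -0.69 and -0.21 for the placode genes, 0.23 and 0.13 for the Wnt ligands and 0.11 and 0.09 for the insulin-like growth factor system, against -0.01 in both for all genes.

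Among placode-enriched cells this comparison held 17 and 14 high and 19 and 24 intermediate cells. EdgeR called 1 of 4564 genes higher (0.0219%) and 0 (0%) lower, with 218 genes at an unadjusted p under 0.05. Dusp6 was not called there (-0.19, edgeR adjusted p = 0.98), against -1.58 ± 0.18 (SE, edgeR adjusted p = 7.22e-15) with all cells. The called gene was Dmkn (1.27 ± 0.20 SE, edgeR adjusted p = 0.00751). Of the 12 genes highest in high over intermediate cells of the total epithelium library (among them Fst, Igfbp5, Hist1h2bc and Wnt16), 1 was past 1.5-fold and 4 had the same sign in both placode-enriched libraries. Of the 12 lowest (among them Spry2 and Dusp6), 2 were past 1.5-fold and 7 had the same sign in both. No share over all genes stands beside these counts, so they support nothing further.

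High cells were last set against low cells after leaving out the placode-gene cells, which left 222 and 6 cells in the total epithelium library, 17 and 7 in placode-enriched library 1 and 14 and 20 in library 2. EdgeR called 7 of 4068 genes higher (0.172%) and 8 lower (0.197%), and these genes were singled out after their values had been seen. Higher were Lmo1, Bex1, Eid1, Vcan, Cdkn1c, Hist1h2bc and Cenpa, and lower Actb, Ifitm1, Ifitm3, Krt17, Cyba, Limd2, Commd10 and Rpgrip1. Cdkn1c had a log2 fold change of 1.61 ± 0.32 (SE, edgeR adjusted p = 3.43e-04) and Krt17 one of -1.16 ± 0.20 (SE, edgeR adjusted p = 1.48e-05). Ifitm3, an interferon-induced membrane protein, changed by -1.64 ± 0.17 (SE, edgeR adjusted p = 1.23e-18), in a fit whose p values again rest on 1 common spread. In all gated cells Ifitm3 stood at 359, 584 and 943 CPM in high, intermediate and low cells of the total epithelium library.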

How the data were processed

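The tables the authors deposited hold raw UMI counts, genes by cells, with no normalization in their values. Per the submitters' processing notes, Cell Ranger, Seurat and mm10 were used, with no version stated; filters and annotation are not given in the sources used here. In the shared table of the placode-enriched libraries the number ending each barcode was taken as the library number. The contrast, the members and the gene lists were chosen with earlier results of these data known. UMIs were summed per library and group and given as CPM with exact Poisson intervals (95%). A ratio was counted from 1.5-fold and a mean of 10 CPM, and a group at 0 was set to 3 UMIs per group. Named genes were Krt15, Dlk2, Wnt16 and Col8a1, the 12 highest and 12 lowest ratios at a mean of 20 CPM that kept 1.5-fold without melanoblast-marker cells and cells under 5 Krt5 and Krt14 UMIs per 10000, and up to 4 genes per list. The placode-enriched sums were tested with edgeR 4.0.16 (TMM, filterByExpr, library block, R 4.3.3); DESeq2 1.42.0 was an alternative. Same-numbered sums came from the same pooled embryos, which is the source of the block. Scrublet in scanpy 1.11.5 marked 11, 4 and 4 cells (0.687%, 0.265% and 0.255%) as doublets, 0 of them among gated cells, so doublets may remain. Code was tested on simulated data. Coordinates are from GENCODE on GRCm38, the same assembly as mm10. No sequence is printed, since no value bears on one. Some genes are not reported here by name.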

Additional observations from a re-analysis of the deposited data

How the results depend on the processing

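In the total epithelium library (853 genes higher and 1304 lower), the counts moved by more than 1.5 times to 2169 lower with Krt15 30 or more against under 4, 144 higher and 209 lower against intermediate cells, 2422 lower with the suprabasal limit at 5, 1334 higher with the placode gate at 0 UMIs, 2128 lower with the stricter cycling gate, 1404 higher with cells thinned to 5000 UMIs, 161 and 183 at a mean of 50 CPM, 1534 and 2459 with no filter, and 298 and 537 at 2-fold. Against intermediate cells without placode-gene cells, an alternative chosen after seeing the data like the others on placode-gene and dermal-gene cells, they were 152 and 209. In the placode-enriched libraries (140 and 147 called), edgeR called 42 and 40 with Krt15 30 against 4, 17 and 26 against intermediate cells, 88 higher with the suprabasal limit at 5, 32 and 61 with the placode gate at 0, 60 and 89 with the stricter cycling gate, 19 and 28 after thinning, 7 and 8 without placode-gene cells, 1 and 0 against intermediate cells without them and 264 lower with no filter. DESeq2 called 36 and 38. Without the replicate block the counts were 112 and 150. Genes past 1.5-fold in both libraries were 498 higher and 807 lower, and without one replicate 724 to 940 higher and 1049 to 1235 lower. The cause of these moves was not tested. The Krt15-low share of the total epithelium library was 3.93% among cells of 15000 to 30000 UMIs. Without placode-gene cells the high and low shares were 68.5% and 1.85%, and 39.5% and 16.3% and 24.1% and 34.5% in the placode-enriched libraries.

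Over 26 named genes and 15 alternatives 319 values were computed, of which 235 stayed within the counting interval, 72 moved outside it in the same direction and 12 changed sign. The log2 ratio of Wnt16 was -0.49 without placode-gene cells and that of Vgll3 -0.15 with the suprabasal limit at 5. Against intermediate cells, with and without placode-gene cells, the ratio was -0.068 and -0.21 for Pcsk2, -0.045 and -0.021 for Tmem161a, 1.28 and 1.11 for Lum, 0.18 and 0.0089 for Crabp1 and 0.54 and 0.96 for Meg3. Leaving out called doublets or Krt4 and Krt6a cells removed 0 of the compared cells. The 26 low cells, their lower depth and the 4 sums of the test limit what could be detected.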
